A study of Arabidopsis thaliana with 5 samples.

Results

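The 112 probe sets described here are those whose log2 value was higher on both arrays of clipped Landsberg erecta than on any of the 3 arrays of clipped Columbia, with ecotype means at least 0.4 apart, which is 1.32-fold. They were chosen by these values, so their differences between the ecotypes are a description and carry no test. A single named gene was left out by the same rule. The rule could pick from 22633 nuclear or unnamed probe sets, of 22746 on the array besides the controls, and 61 of the 112 were paired with 1 gene, 5 with several genes and 46 with no gene name in the annotation used here. All 61 named genes are protein-coding.

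The arrays carried RNA from the secondary meristem of Arabidopsis thaliana grown in a greenhouse. Plants of the ecotypes Columbia (3 arrays) and Landsberg erecta (2 arrays) had been clipped when they bolted, to mimic browsing by a mammal, and were sampled a day later. The design text gives a difference in compensatory response as the reason for choosing these ecotypes. All 5 arrays are from clipped plants, so each difference below is one between ecotypes under clipping, and unclipped plants are not analysed here. The labels call the arrays biological replicates and do not say whether plants were pooled.

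Removing the main inflorescence releases axillary buds, the secondary meristems, from apical dominance, and the shoots they form decide how far a plant regrows. Landsberg erecta takes its name from a mutation in ERECTA, a receptor kinase gene that shapes stem and inflorescence growth. Outgrowth needs new cells, and dividing cells make histones, the proteins that package new DNA, and ribosomes for new protein.

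The values ranged from 2.15 to 15.1 on the log2 scale, with array medians from 5.44 to 5.50, and 24.5% to 25.2% of the probe sets of each array sat at the shared minimum. LAS and CLV3 were at that minimum on all 5 arrays, and they were the only 2 of 10 listed genes of shoot and axillary meristems that had a named probe set, so no measured marker showed the labelled tissue. Some signs of RNA input or integrity moved with the ecotypes and others did not. The 25S ribosomal RNA control had log2 values of 7.16 and 6.53 on Landsberg erecta and 7.77, 8.11 and 8.17 on Columbia (exact permutation test, two-sided p = 0.1, adjusted over 4 controls p = 0.2). The log2 ratio of the 3 prime to the 5 prime GAPDH probe sets was 1.25 and 1.22 on Landsberg erecta and 0.89, 0.92 and 0.98 on Columbia (exact permutation test, two-sided p = 0.1, adjusted p = 0.2), and 0.1 is the smallest p that the 10 possible splits allow. The same ratio differed by 0.03 for ubiquitin and by -0.03 for actin (exact permutation tests, two-sided p = 0.9 and 1, adjusted p = 1 for both). Their part in the differences below was not tested. In bulk tissue, fewer cells of a type and less RNA per cell cannot be told apart.

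The 112 make up 0.495% of the probe sets the rule could pick from, and the mirrored rule gave 105 that were higher in Columbia (0.464%). At a Benjamini-Hochberg adjusted p under 0.05, limma called 0 of the 112 and 0 of 22746 (0%) in Landsberg erecta's favour over the whole array. An unadjusted limma p under 0.05 was found for 20 of the 112. Over the whole array it was found for 141 probe sets higher in Landsberg erecta and 265 higher in Columbia. The rule chose the 112 on this same contrast, so nothing is read from the 20. The smallest limma adjusted p among the 112 was 0.740. Without the minimum difference, 653 probe sets (2.89%) were higher in Landsberg erecta with no overlap.

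The same rule was applied to the 9 other ways to set 2 of the 5 arrays against the other 3. These gave 94 to 351 probe sets, with a median of 204, and 8 of the 9 counts were above 112. Only Columbia replicate 1 paired with Landsberg erecta replicate 1 gave fewer, 94. The largest count, 351, came from Columbia replicate 2 paired with Landsberg erecta replicate 2. With no minimum difference, all 9 gave more than the 653 of the ecotypes, 883 to 1246. In the other direction, with the pair lower than the other arrays, the ecotypes gave 105 and the 9 others 149 to 273. Most other pairs of arrays were thus set apart by more probe sets than the Landsberg erecta pair was.

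**Figure D1:**
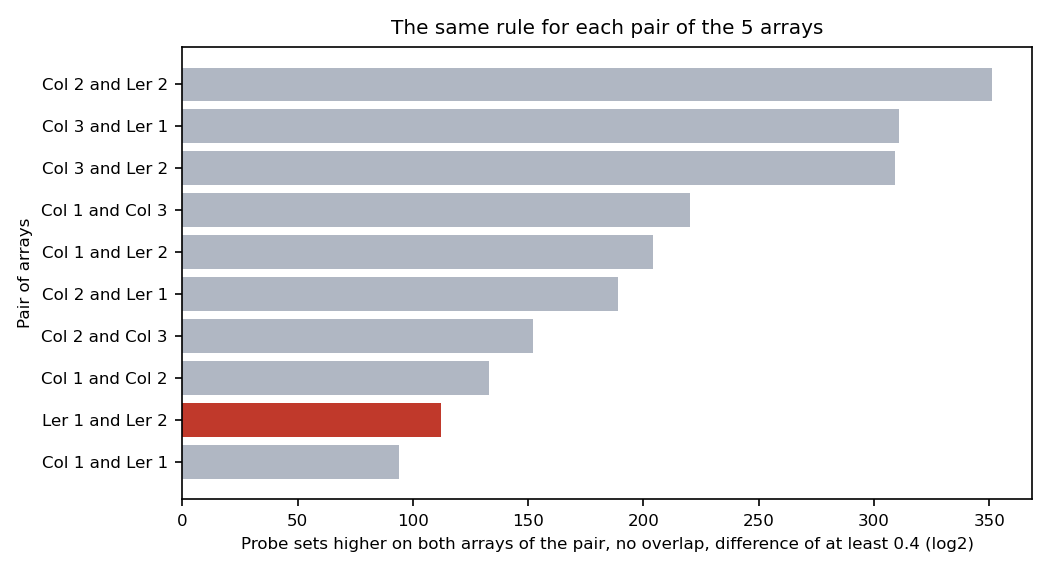
Bars give the number of probe sets (horizontal axis) that were higher on both arrays of a pair than on the other 3 arrays, without overlap and by at least 0.4 on the log2 scale, for each of the 10 pairs (vertical axis; Col, Columbia; Ler, Landsberg erecta; the digit is the replicate). The Landsberg erecta pair, in red, has 112, against 94 to 351 for the 9 others.

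The differences were small. Their median was 0.50 on the log2 scale, 57 of the 112 lay between 0.4 and 0.5, 52 between 0.5 and 1, and 3 reached 1, a 2-fold difference. The gap from the lowest Landsberg erecta value to the highest Columbia value had a median of 0.13 and was under 0.1 for 44 probe sets. It exceeded the ranges within both ecotypes for 8. Beside this, the range between the Landsberg erecta arrays had a median of 0.32 over the 112 and that between the Columbia arrays of 0.44, against 0.14 and 0.21 over the 16326 probe sets that varied at all. A minimum difference by itself favours probe sets that vary, so the wider ranges of the 112 are a description. The level averaged over the 5 arrays had a median of 6.53 over the 112 and of 6.81 over the 16326. A mean level above 5 was found for 96 of the 112 (85.7%) and for 73.2% of the 16326, and none of the 112 had a value at the shared minimum.

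Just 13 of the 112 are genes with a symbol of their own, and they are ordered here by roles assigned after the genes were known, with no test of any role. Chromatin and transcription take in 6 of them, with differences of 0.40 to 0.83. The share of such genes over the whole array was not counted, so nothing is read from the 6. The other 48 named genes carry a locus identifier alone, and no function is given for them here. The chromatin gene with the largest difference was chr31, which encodes a chromatin remodelling protein of the group that guides RNA-directed DNA methylation. Its log2 values were 4.25 and 4.53 in Landsberg erecta and 3.06, 3.91 and 3.70 in Columbia, a difference of 0.83, 1.77-fold. All 5 values are low on this scale and Columbia replicate 1 stands lowest. A second probe set of chr31 was at the shared minimum on all arrays and so does not bear on it.

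Histone H2B, a core histone of the nucleosome, had 2 genes among the 61 named ones of the 112. HTB2 had 8.55 and 8.79 in Landsberg erecta and 8.21, 8.23 and 8.00 in Columbia, a difference of 0.52 and 1.44-fold, with a gap of 0.32 that is wider than the range within either ecotype. HTB11 had 10.45 and 10.90 in Landsberg erecta against 10.30, 10.26 and 10.23, a difference of 0.41, and Landsberg erecta replicate 2 stands apart from the other 4 arrays. Since histone genes came up, the 8 probe sets named for a single histone gene were looked up after these values were seen. Probe sets paired with several genes, 5 of them among the 112, were not looked up, so any histone genes among them are not counted here. HTB1 also did not overlap, with 11.25 and 11.38 against 11.05, 11.10 and 10.76, but its difference of 0.34 was under the minimum. HTB4 overlapped: its 11.72 and 11.61 in Landsberg erecta lie around the 11.60, 11.64 and 11.42 of Columbia. The rule required HTB2 and HTB11 not to overlap, so that they do not is no result. Over all probe sets, 2.89% were higher in Landsberg erecta without overlap, and nothing is read from HTB1. Histone H2B genes are close copies of each other, so how far their probe sets read a single gene is uncertain.

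Of the other 4 histone probe sets, linker histone HON4 went the other way, with 9.79 and 9.84 in Landsberg erecta below 10.09, 10.11 and 9.90 in Columbia. HIS1-3, another linker histone gene, had 2.19 and 2.73 against 2.15, 2.19 and 2.15, close to the minimum. HTR12, the centromeric histone H3 gene, overlapped, with 4.69 on both Landsberg erecta arrays against 4.91, 4.69 and 4.22, and MGH3, a histone H3 gene of male gametes, held 2.15 on all arrays. Of the 8, 6 had a higher mean in Landsberg erecta, 1 a lower one and 1 no difference, and 2 of the 6 are those that the rule itself picked. Over all varying probe sets, 46.7% had a higher mean in Landsberg erecta, and with so few genes chosen late nothing is read from the count.

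**Figure D2:**
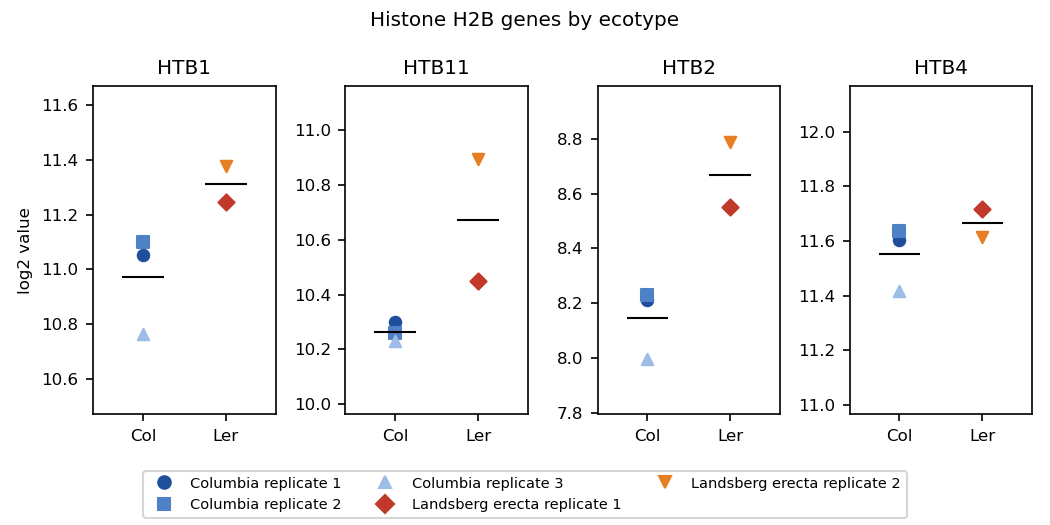
Each panel shows the log2 value (vertical axis, same span in each panel) of a histone H2B gene on the 3 Columbia and 2 Landsberg erecta arrays, with a symbol per array and a line at each ecotype mean. HTB2 and HTB11 do not overlap between the ecotypes by construction. HTB1 does not overlap either, and HTB4 does.

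The other 3 genes of this group were NRPA1, CIL and PKDM7D. NRPA1, the largest subunit of RNA polymerase I, which transcribes ribosomal RNA, had 7.30 and 7.77 in Landsberg erecta and 7.16, 6.96 and 7.21 in Columbia. CIL, a relative of the CCT-domain regulator CIA2, had 4.08 and 4.41 against 3.87, 3.30 and 3.87, and 2 of its Columbia values are equal. PKDM7D, a JmjC-domain histone demethylase, stood just inside the threshold with 7.66 and 8.14 against 7.56, 7.53 and 7.40. In NRPA1, CIL and PKDM7D alike Landsberg erecta replicate 2 gave the highest value, and the difference fell to 0.19, 0.40 and 0.16 without that array.

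Genes of protein modification and hormone perception were SIZ1 and GID1B. SIZ1, a SUMO ligase that attaches the small modifier SUMO to target proteins in stress and hormone responses, had 7.56 and 8.11 in Landsberg erecta and 7.02, 7.43 and 7.31 in Columbia. A second probe set of SIZ1 overlapped, with 5.01 and 6.36 against 5.21, 5.53 and 5.07, so the 2 probe sets differ on Landsberg erecta replicate 1. GID1B, a gibberellin receptor, had 2.55 and 3.07 against 2.43, 2.43 and 2.28, all near the shared minimum.

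The remaining 5 genes with a symbol have varied roles. RXF26, of the GDSL lipase family, had 8.62 and 8.60 in Landsberg erecta and 7.94, 8.38 and 7.34 in Columbia, a difference of 0.72 with the arrays of Landsberg erecta almost equal. RST1, which is needed for normal cuticular wax and embryo growth, had 6.78 and 6.75 against 6.001, 6.45 and 6.35. BGLU28, a beta-glucosidase induced by lack of sulphur, had 4.82 and 5.33 against 4.80, 4.60 and 4.54, a gap of 0.02. Of these, the Landsberg erecta arrays lie close together in RXF26 and RST1 but not in BGLU28. TRM22, of a family with motifs that recruit the microtubule protein TON1, had 6.45 and 6.80 against 6.20, 6.42 and 5.89. ATATH8 had 6.59 and 7.05 against 6.48, 6.54 and 6.15. In TRM22 and ATATH8 the gaps of 0.03 and 0.05 are smaller than the range within each ecotype.

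**Figure D3:**
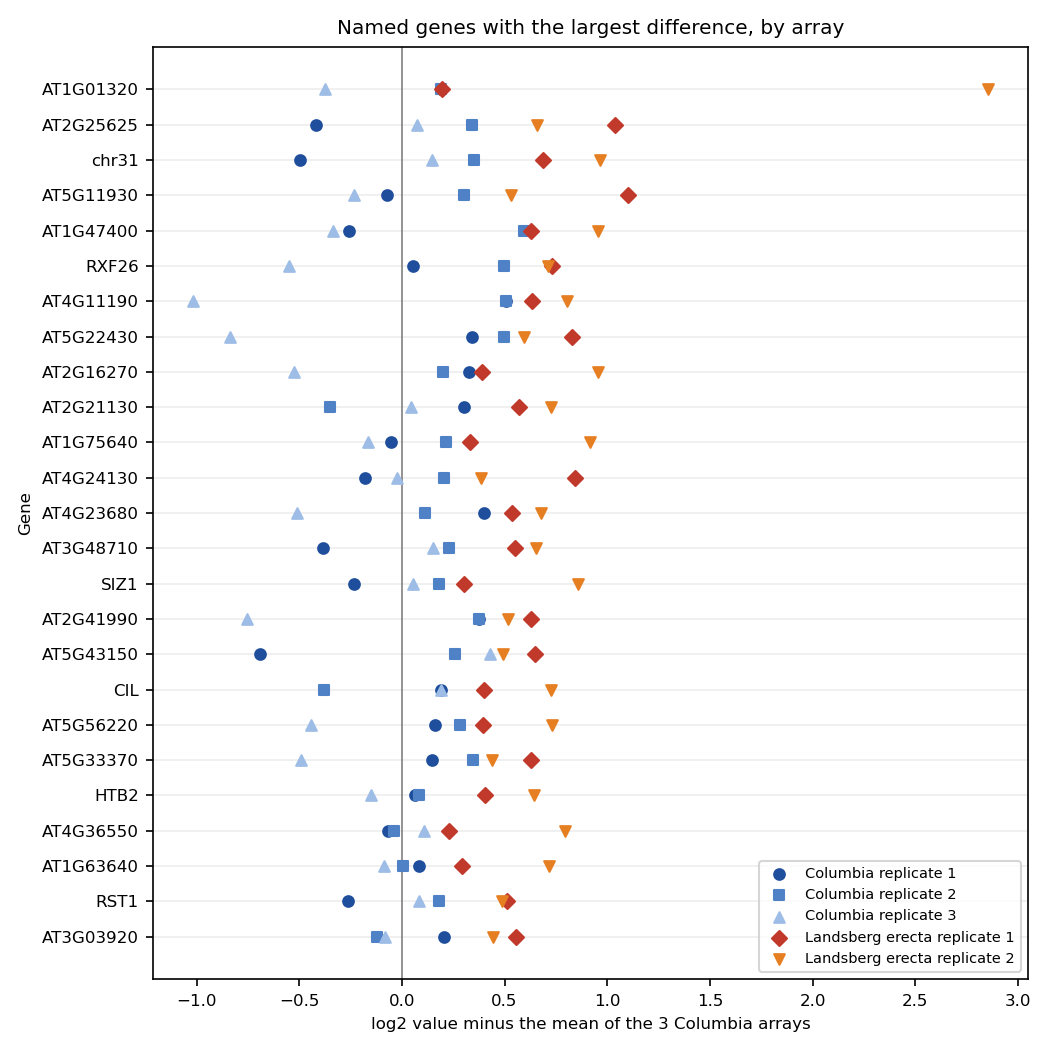
Points give the log2 value minus the mean of the 3 Columbia arrays (horizontal axis) for the 25 named genes with the largest difference (vertical axis), with a symbol per array. The Landsberg erecta points lie to the right of all Columbia points by construction; AT1G01320 has 1 far point, Landsberg erecta replicate 2, and AT4G11190 has Columbia replicate 3 far to the left.

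The differences of 21 of the 112 stayed at 0.4 or more whichever array was left out. The same values and the same 0.4 chose the 112, so this is a description. It was not counted for the other pairs of arrays. Of the 21, 11 are named: AT2G25625, chr31, AT5G11930, AT1G47400, RXF26, AT2G21130, AT3G48710, HTB2, AT3G03920, AT1G30240 and AT3G61360. AT2G25625 had 5.34 and 4.96 in Landsberg erecta and 3.89, 4.64 and 4.38 in Columbia, the largest difference of the 11 at 0.85, 1.80-fold. AT5G11930 had 6.12 and 5.55 against 4.94, 5.32 and 4.78, with the higher value on Landsberg erecta replicate 1. AT1G47400 had 6.84 and 7.16 against 5.95, 6.81 and 5.87. Columbia replicate 2 came within 0.03 of Landsberg erecta in AT1G47400, so its lead rests on the other 2 Columbia arrays. AT2G21130 had 8.04 and 8.19 against 7.77, 7.12 and 7.51. AT3G48710 had 6.02 and 6.13 against 5.09, 5.70 and 5.62. AT3G03920 had 10.99 and 10.88 against 10.64, 10.31 and 10.35. In AT2G21130, AT3G48710 and AT3G03920 the arrays of Landsberg erecta were 0.15 or less apart. AT3G61360 had 5.44 and 5.45 in Landsberg erecta and 4.99, 4.92 and 4.99 in Columbia, and AT1G30240 had 7.18 and 7.11 against 6.79, 6.50 and 6.69. Both have a gap, 0.44 and 0.33, wider than the range within either ecotype, as do HTB2, AT5G08390 and AT4G38010 among the named genes.

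Landsberg erecta replicate 2 carried much of the differences. It had the higher of the Landsberg erecta values in 88 of the 112 (78.6%), against 41.8% of all varying probe sets, in which replicate 1 was the higher in 42.3% and both were equal in 15.9%. The array median was 5.50 on replicate 2 and 5.44 on replicate 1. Without replicate 2, 62 of the 112 fell under 0.4, against 6 without replicate 1. AT1G01320, the named gene with the largest difference, had 4.05 and 6.71 in Landsberg erecta and 4.05, 4.05 and 3.48 in Columbia. Landsberg erecta replicate 1 was thus within 0.01 of Columbia replicates 1 and 2, though well above Columbia replicate 3. The difference of 1.53 came mostly from Landsberg erecta replicate 2, being 0.20 without it. A second probe set of AT1G01320 overlapped, with 9.998 and 10.67 against 10.13, 10.01 and 9.81, and was again highest on replicate 2. AT2G16270 had 6.81 and 7.37 against 6.75, 6.62 and 5.89, AT1G75640 had 5.34 and 5.93 against 4.96, 5.22 and 4.84, and AT4G36550 had 5.67 and 6.24 against 5.37, 5.41 and 5.55. AT1G63640 had 6.38 and 6.80 against 6.17, 6.09 and 5.9996. All 4 fell under 0.4 without replicate 2, as did SIZ1 and AT5G56220, which makes 7 of the 25 named genes with the largest difference.

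Columbia replicate 3 was the single lowest Columbia array in 61 of the 112 (54.5%), against 23 for replicate 1 and 28 for replicate 2. Over all varying probe sets it was the single lowest in 29.5%, against 23% for replicate 1 and 21.5% for replicate 2. Ties make these shares unlike those of the 112. At least 2 Columbia values were identical in 35% of the varying probe sets and in 17.9% of the 112. Without it 45 of the 112 fell under 0.4, among them 6 of the 25 named genes with the largest difference. AT4G11190 had 6.12 and 6.29 in Landsberg erecta and 5.99, 5.99 and 4.47 in Columbia. AT5G22430 had 10.24 and 10.01 against 9.76, 9.91 and 8.58. AT2G41990 had 5.90 and 5.79 against 5.65, 5.65 and 4.52. In these 3 genes the gaps to the highest Columbia array were just 0.13, 0.10 and 0.14, while replicate 3 lay more than 1 below it. AT4G23680 had 9.80 and 9.94 against 9.67, 9.38 and 8.75, and AT5G33370 had 10.78 and 10.59 against 10.29, 10.50 and 9.66. AT5G56220 had 4.16 and 4.49 against 3.92, 4.05 and 3.32.

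Markers of anthers and tapetum, the tissue that feeds developing pollen, were also lowest on Columbia replicate 3. The 4 measured genes, AMS, EMS1, SPL and AT5G07230, summed to a linear level of 578 and 822 on Landsberg erecta and 721, 748 and 225 on Columbia. AT5G07230 alone made up most of each sum, with log2 values of 8.90 and 9.32 against 9.21, 9.23 and 7.47. Of the 4 genes, 3 had their lowest value on Columbia replicate 3. AMS, a regulator of tapetum development, had 5.97 and 6.96 against 6.51, 6.76 and 4.95. SPL had 2.80 on 4 arrays and 2.86 on Landsberg erecta replicate 2. What part these markers have in the low values of the 112 on that array was not tested. GUT2, the measured gene of secondary walls in stems, had 7.68 and 8.01 against 5.79, 6.88 and 8.27 and so was highest there. The 4 measured cold and dehydrin genes, LTI30, COR47, COR15A and COR15B, were all highest on Columbia replicate 3 as well. LTI30, a dehydrin gene, had 6.71 and 6.48 against 5.76, 5.38 and 9.13, and the list summed to a linear level of 5055 and 4478 on Landsberg erecta and 4609, 3314 and 7403 on Columbia.

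**Figure D4:**
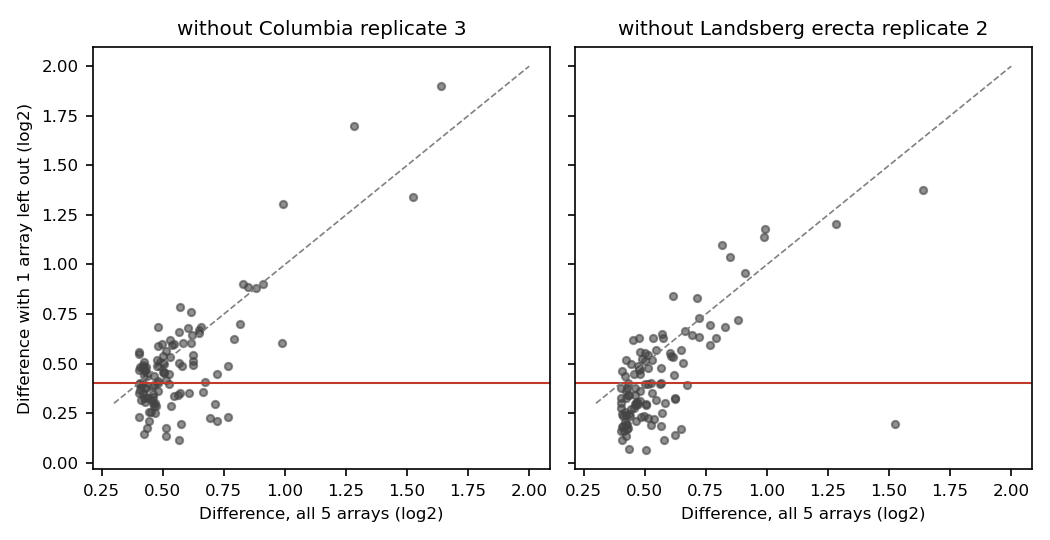
Each point is 1 of the 112 probe sets, with its difference over all 5 arrays (horizontal axis, log2) and with 1 array left out (vertical axis, log2): Columbia replicate 3 on the left, Landsberg erecta replicate 2 on the right. The red line marks 0.4 and the dashed line equality; 45 points lie under the red line on the left and 62 on the right.

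Other named genes of the 25 with the largest difference fell under 0.4 without a different array. AT5G43150 had 7.03 and 6.87 in Landsberg erecta and 5.69, 6.64 and 6.81 in Columbia, and its difference of 0.57 fell to 0.22 without Columbia replicate 1. AT4G24130 had 7.13 and 6.68 against 6.11, 6.49 and 6.26, and its difference came to 0.39 without Landsberg erecta replicate 1, just under the threshold. CIL fell to 0.37 without Columbia replicate 2 and RST1 to 0.37 without Columbia replicate 1.

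The named genes lay on all 5 chromosomes, with 16, 10, 10, 11 and 14 on chromosomes 1 to 5, against 25.8%, 16.5%, 20.5%, 14.7% and 22.5% of the named genes the rule could pick from. The members' own shares were 26.2%, 16.4%, 16.4%, 18% and 23%. AT4G23670 and AT4G23680 were the single pair of named genes within 5 genes of each other, and are direct neighbours on chromosome 4. AT4G23670 had 11.01 and 11.18 in Landsberg erecta and 10.69, 10.80 and 10.41 in Columbia. Both neighbours were lowest on Columbia replicate 3 and highest on Landsberg erecta replicate 2, and whether their probe sets tell the genes apart was not tested. The median gene length was 2244 bases for the named members and 2122 for all named genes.

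At the threshold, the 5 named genes just inside were AT1G21200, AT1G76580, AT5G02610, AT1G75880 and PKDM7D, with differences of 0.40 each. AT1G76580 had 5.70 and 5.90 in Landsberg erecta and 5.69, 4.81 and 5.69 in Columbia, and AT1G21200 had 5.28 and 5.15 against 4.20, 5.12 and 5.12. In both, 1 Columbia array lies well below the other 2. AT5G02610 had 11.35 and 11.61 against 11.28, 10.89 and 11.07, and AT1G75880 had 4.72 and 4.77 against 4.45, 4.57 and 3.999. Just outside were AT5G27220, AT5G47060, TIC, AT2G26780 and AT2G43800, at 0.40 to 0.39. AT5G27220 had 2.82 and 3.57 against 2.80, 2.80 and 2.79, AT5G47060 had 8.32 and 8.70 against 8.24, 8.23 and 7.87, and AT2G43800 had 7.70 and 7.76 against 7.65, 7.65 and 6.74. In all 3 the gap is under 0.1. TIC, a regulator of the circadian clock, had 8.02 and 8.04 against 7.82, 7.73 and 7.38, and AT2G26780 had 7.63 and 7.82 against 7.37, 7.32 and 7.33. TIC and AT2G26780 had gaps of 0.20 and 0.27, wider than most of the 112, so the threshold does not sort genes by how clearly the ecotypes part.

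The lowest probe sets of the 112 without a gene name differed by 0.40 and the highest by 1.64, with 7.40 and 7.93 in Landsberg erecta and 4.42, 7.12 and 6.55 in Columbia. The next had 6.76 and 6.91 against 4.45, 5.83 and 6.38. Columbia replicate 1 is far below the other arrays in both. The median difference was 0.53 over the 46 without a name and 0.47 over the 61 named genes. The 5 probe sets paired with several genes differed by 0.43 to 0.56.

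No gene of 14 lists of responses and tissues was among the 112. Just 20 of 118 listed genes had a named probe set, and 3 lists (heat shock, phloem and pollen) had none. The rule picked 0.495% of the probe sets open to it, so nothing is read from this absence. None of the 20 was called by limma (adjusted p under 0.05) in either direction, and none of the 22746 over the whole array was. THI2.1, a thionin gene induced by jasmonate and the 1 measured gene of the wound list, was the single gene of the 20 higher in Landsberg erecta without overlap, with 2.86 and 3.08 against 2.51, 2.85 and 2.60, a difference of 0.32. For scale, 2.89% of all probe sets were so placed. The anthocyanin list had 2 genes that overlapped, DFR and UF3GT, with differences of 0.81 and 0.41. The 4 cold and dehydrin genes differed by -0.16 to 0.35 with a median of -0.05, over Columbia arrays that were far apart. Both measured photosynthesis genes were lower in Landsberg erecta without overlap, as were 3.91% of all probe sets. RCA, rubisco activase, had 14.37 and 14.40 against 14.56, 14.60 and 14.50, and LHCB4.1, an antenna protein of photosystem II, had 13.76 and 13.59 against 13.87, 13.86 and 13.89. The part of these green tissue markers in the differences of the 112 was not tested. GI of the circadian clock had 0.40, SAG101 of salicylate defence -0.01, GUT2 of the secondary wall 0.87 and TRY, of trichomes, 0.29. The anther list had a median of 0.43 over 4 genes, and UFO, of floral meristems, was at the shared minimum like LAS and CLV3. Over all probe sets that the rule could pick from, the median difference was 0.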

How the data were processed

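The deposited table held 1 value per probe set and array, on a log2 scale, as its range shows; the authors' background correction, normalization and summary behind the log2 values are not given in the sources used here. Limma (version 3.58.1, R 4.3.3; Landsberg erecta minus Columbia, 5 arrays, no covariate) was fitted to all 22746 probe sets besides 64 controls, with Benjamini-Hochberg adjustment and a threshold of 0.05, and was tested on simulated data. Names came from the platform annotation, updated to RefSeq names of TAIR10.1; 35 mitochondrial and 77 plastid probe sets and 1 nuclear gene stayed out of the rule. Unnamed probe sets could not be checked for their genome. By the naming rule, values per array were given for the 25 named genes with the largest difference, the 5 just inside and the 5 just outside 0.4, with examples from further groups; no list gene was a member. The histone list, the list genes given array by array, the other genes with a symbol, AT1G30240, AT3G61360 and AT4G23670 were chosen after their values were seen. Members, lists and tests were chosen with earlier results of these data known. Alternatives were other normalizations, minimum differences and gaps, filters on level, ties and probe sets, eBayes settings, other thresholds, the replicate number as a block and each array left out. Sequences, and the promoter motifs planned with them, are not analysed here. Precision is limited by there being 5 arrays, and p-values reflect just the spread between them. Counts and figures used Python 3.11.15 and matplotlib 3.10.9.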

Additional observations from a re-analysis of the deposited data

How the results depend on the processing

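Of 112 probe sets higher in Landsberg erecta, 99 stayed under quantile normalization (137 in all) and 95 with equal array medians (111 in all). The counts for Landsberg erecta and Columbia, 112 and 105, became 220 and 246 at a minimum difference of 0.3, 55 and 55 at 0.5, 3 and 3 at 1, and 61 and 54 over probe sets paired with 1 gene. With a minimum gap, chosen after seeing the data, they were 68 and 80 at 0.1, and 33 and 54 at 0.2. Equal array medians gave 152 for Columbia. Leaving out any 1 of the 5 arrays raised both counts, to between 267 and 1037 for Landsberg erecta and between 189 and 701 for Columbia. Having no overlap is an easier condition with fewer arrays, and what set the sizes was not tested. Of the 112, between 50 (without Landsberg erecta replicate 2) and 106 (without Landsberg erecta replicate 1) were among them. Of the 105, between 67 and 93 were, without the same arrays. The median difference of the 112 lay between 0.375 (without Landsberg erecta replicate 2) and 0.642 (without replicate 1) when an array was left out.

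Limma called 0 probe sets higher in Landsberg erecta, and 0 of the 112, under both normalizations, both filters, both eBayes settings, an adjusted p under 0.10 and the replicate number as a block (0 calls), in which Columbia replicate 3 has a block of its own. At an unadjusted p under 0.05 there were 141 and 20. Leaving out an array gave between 0 and 658 calls higher in Landsberg erecta, and between 0 and 3 among the 112: 658 without Landsberg erecta replicate 1 (1014 in both directions) and 656 without replicate 2, where the lone array is assumed to vary like Columbia. The labels do not say that replicate numbers pair arrays, and deviations from the ecotype means correlated at -0.02 and 0.08 across probe sets for replicates 1 and 2.

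When an array was left out, the difference ranged from -1.48 to -0.85 for 25S ribosomal RNA and from 0.288 to 0.329 for GAPDH. For ubiquitin it ranged from -0.034 to 0.072, reversed without Columbia replicate 2, and for actin from -0.045 to 0.0015, reversed without Columbia replicate 3. Where no reason is given, the cause was not tested. The 5 arrays, and the probe sets at the shared minimum, limit what could be seen.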
